A study of Mus musculus with 5 samples.

Results

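The *Zfp* genes are mouse protein-coding genes whose symbol is Zfp followed by a number, and most encode C2H2 zinc finger proteins. All protein-coding genes with such a symbol in the GENCODE vM21 annotation of GRCm38 were taken. They numbered 394 of the 21670 protein-coding genes on the autosomes and the X chromosome. The rule used no measured value, but it was chosen with earlier results of these data known. DNA methylation had been measured by whole-genome bisulfite sequencing (WGBS) in sorted mouse acute myeloid leukemia (AML) blasts, with 2 libraries of *Tet2*+/+ blasts (numbered 23 and 24) and 3 of *Tet2*-/- blasts (5, 7 and 8). All 5 also carried *Cebpa*-/p30, in which 1 allele of the myeloid transcription factor gene *Cebpa* was deleted and the other made only the short p30 isoform, on a C57BL/6 background. The leukemias arose in lethally irradiated C57BL/6J.SJL female recipients of donor bone marrow. The floxed alleles were deleted with *Mx1-Cre*, a Cre driven by an interferon-inducible promoter, after poly(I:C) injection, so that deletion was not limited to 1 blood lineage of the donor cells. Live donor-derived CD45.2+ cells negative for CD3, B220 and Ter119 were sorted from moribund mice, and the blasts compared therefore came from whole leukemias and not from a single cell type defined by stage. A change of methylation within cells and a change in the mixture of cells cannot be told apart in such bulk samples.

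C2H2 zinc fingers are short repeats that each hold a zinc ion between a pair of cysteines and a pair of histidines, and an array of them reads a DNA sequence. Many *Zfp* proteins also carry a KRAB domain, which recruits the co-repressor TRIM28 and the histone H3 lysine 9 methyltransferase SETDB1, and such proteins silence retroelements and protect imprinted methylation in the early embryo. KRAB zinc finger genes sit in tandem clusters, and their finger arrays are commonly encoded by a single large last exon, a place known to carry H3K9me3 and dense DNA methylation. TET2 oxidizes 5-methylcytosine on the path to its removal, and bisulfite sequencing reads 5-methylcytosine and 5-hydroxymethylcytosine alike.

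The annotated sequences bore out the family name for most members. At least 3 C2H2 patterns were found in the proteins of 355 of the 394 members, with a median of 10 and a maximum of 36 in *Zfp142*, and 16 members had none, among them the CCCH-type RNA-binding genes of the *Zfp36* family. A KRAB pattern was found in 231 members. A member was called clustered when at least 3 other *Zfp* genes started within 500 kb of its own start, which held for 193 members and left 201 others. Of the clustered members 85.5% had a KRAB pattern, against 32.8% of the others, so that the 2 splits largely coincided. The last exon held 86.3% of all finger patterns, 97.2% of those of clustered members and 72.1% of those of the others. Its median length was 2516 bp, compared with 1133 bp over all protein-coding genes. The members were most numerous on chromosome 7 (92), chromosome 17 (46) and chromosome 13 (36).

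To show what the bisulfite reads covered, the following stretches of GRCm38, with genes as in GENCODE vM21, are written 5′ to 3′ on the strand of the gene with each CpG in capitals. The first pair are the 300 bases just before the start of the gene with the highest promoter level, *Zfp541* (chr7:16061514-16061813, + strand, 47 CpGs), and of the clustered member with the lowest, *Zfp787* (chr7:6155998-6156297, - strand, 29 CpGs). The next 3 lie in the coding part of a last exon: *Zfp142*, which has the most fingers (chr1:74567031-74567330, - strand, 15 CpGs), *Zfp36l2*, the unclustered member with the lowest last exon (chr17:84186857-84187156, - strand, 27 CpGs), and *Zfp30* (chr7:29792644-29792943, + strand, 17 CpGs), a clustered KRAB gene. The *Zfp30* last exon was chosen after values were seen, because the promoter of this gene differed between *Tet2*+/+ and *Tet2*-/- blasts. The last 3 were also chosen after their values were seen, because the blasts differed there: the first intron of *Zfp84* from 750 to 1000 bases after its start (chr7:29769302-29769551, + strand, 3 CpGs), the 250 bases before the start of *Zfp30* (chr7:29783748-29783997, + strand, 9 CpGs), and the coding part of the last exon of *Zfp683* (chr4:134058644-134058937, + strand, 9 CpGs).
Zfp541 upstream: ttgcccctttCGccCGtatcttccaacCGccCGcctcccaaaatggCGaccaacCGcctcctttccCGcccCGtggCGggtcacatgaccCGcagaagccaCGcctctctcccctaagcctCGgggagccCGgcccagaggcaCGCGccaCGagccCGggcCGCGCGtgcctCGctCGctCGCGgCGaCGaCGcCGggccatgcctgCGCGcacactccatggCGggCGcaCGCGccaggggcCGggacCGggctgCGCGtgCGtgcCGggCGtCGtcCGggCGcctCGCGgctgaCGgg
Zfp787 upstream: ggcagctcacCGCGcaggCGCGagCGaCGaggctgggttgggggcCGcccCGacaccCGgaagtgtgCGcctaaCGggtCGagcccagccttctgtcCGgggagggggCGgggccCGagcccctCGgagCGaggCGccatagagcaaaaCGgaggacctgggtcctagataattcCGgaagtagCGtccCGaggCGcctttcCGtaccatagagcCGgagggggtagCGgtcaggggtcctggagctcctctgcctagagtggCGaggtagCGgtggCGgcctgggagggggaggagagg
Zfp142 last exon: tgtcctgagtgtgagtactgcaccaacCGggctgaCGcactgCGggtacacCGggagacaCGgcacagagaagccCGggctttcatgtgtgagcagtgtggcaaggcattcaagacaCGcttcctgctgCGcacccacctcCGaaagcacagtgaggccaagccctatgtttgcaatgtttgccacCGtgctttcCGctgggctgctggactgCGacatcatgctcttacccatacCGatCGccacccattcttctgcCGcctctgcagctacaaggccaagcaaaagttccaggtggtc
Zfp36l2 last exon: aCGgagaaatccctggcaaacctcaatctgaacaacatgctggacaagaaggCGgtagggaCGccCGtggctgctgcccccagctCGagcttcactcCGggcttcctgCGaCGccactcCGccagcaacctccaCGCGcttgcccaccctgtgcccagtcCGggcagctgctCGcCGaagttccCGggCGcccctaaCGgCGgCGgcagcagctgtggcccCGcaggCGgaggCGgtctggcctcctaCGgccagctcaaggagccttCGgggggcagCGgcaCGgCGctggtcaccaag
Zfp30 last exon: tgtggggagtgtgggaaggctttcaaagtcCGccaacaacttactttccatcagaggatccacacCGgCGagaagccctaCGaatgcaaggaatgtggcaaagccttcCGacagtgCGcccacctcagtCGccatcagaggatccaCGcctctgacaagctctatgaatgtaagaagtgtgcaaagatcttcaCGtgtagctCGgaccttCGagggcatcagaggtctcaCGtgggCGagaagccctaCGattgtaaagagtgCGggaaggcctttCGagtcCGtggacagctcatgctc
Zfp84 first intron: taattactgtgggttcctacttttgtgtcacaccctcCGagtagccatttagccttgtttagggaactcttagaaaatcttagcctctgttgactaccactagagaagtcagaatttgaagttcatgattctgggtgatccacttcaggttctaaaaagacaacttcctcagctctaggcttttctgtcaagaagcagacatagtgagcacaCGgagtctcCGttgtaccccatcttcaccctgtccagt
Zfp30 upstream: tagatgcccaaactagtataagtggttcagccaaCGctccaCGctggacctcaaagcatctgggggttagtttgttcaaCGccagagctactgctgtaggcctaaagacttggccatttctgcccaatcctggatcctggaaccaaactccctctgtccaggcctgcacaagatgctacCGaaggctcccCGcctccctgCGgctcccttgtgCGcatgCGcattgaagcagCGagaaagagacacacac
Zfp683 last exon: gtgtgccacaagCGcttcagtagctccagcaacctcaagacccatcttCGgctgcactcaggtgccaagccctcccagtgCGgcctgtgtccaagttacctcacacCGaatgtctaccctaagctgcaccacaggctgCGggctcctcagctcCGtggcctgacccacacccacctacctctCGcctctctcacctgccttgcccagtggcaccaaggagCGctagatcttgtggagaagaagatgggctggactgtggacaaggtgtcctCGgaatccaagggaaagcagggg

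Values by library are given throughout in the order 23, 24 (*Tet2*+/+), then 5, 7 and 8 (*Tet2*-/-). The methylation level of a region is the percentage of all CpG calls on both strands that were methylated, where a call is 1 read at 1 CpG. The CpG-rich stretch before *Zfp541*, a gene known for its role in meiosis, had levels of 100%, 85.7%, 98.2%, 95.8% and 92.3% from 7 to 56 calls per library. The CpG-rich stretch before *Zfp787* had 0%, 0%, 1.14%, 1.11% and 0% from 58 to 180 calls, where 0 of 58 calls would allow a level of up to 5.17%. Both stretches are rich in CpGs, and they were chosen for their opposite promoter levels. In the last exons, the finger-coding stretch of *Zfp142* had 87.9%, 92.4%, 91.5%, 94.0% and 91.0%, and the coding stretch of *Zfp36l2*, whose protein binds AU-rich mRNA and has no C2H2 finger, had 1.39%, 0.781%, 0.469%, 0% and 2%.

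Across autosomes and X the libraries held 2.96 to 5.19 calls per CpG pair, the 2 CpGs that face each other on the strands, and their overall levels were 67.3%, 62.3%, 70.9%, 74.8% and 68.4%. Cytosines of the mitochondrial genome read as methylated in 0.807% to 0.989% of calls. The first 1000 bases of the last exon of *Tet2*, with 17 CpG pairs, had 44 and 64 calls in the *Tet2*+/+ libraries and 0 in each *Tet2*-/- library. Promoters of the marker genes fixed for other cell types had higher means in *Tet2*-/- blasts: the mean of the 3 erythroid promoters was 27.9%, 26.2%, 47.5%, 45.2% and 49.3%, that of the 3 B cell promoters 46.1%, 47.9%, 51.7%, 63.8% and 56.6%, that of the 3 T cell promoters 75.9%, 67.9%, 80.3%, 85.5% and 83.3%, and that of the 2 stromal and endothelial promoters 51.8%, 53.2%, 62.5%, 61.6% and 58.2%. Of these promoters 1 of 3 erythroid, 0 of 3 B cell, 0 of 3 T cell and 0 of 2 stromal and endothelial ones were called higher by the test used below, where 1.02% of all promoters were. The 5 leukocyte and myeloid promoters averaged 21.7%, 16.6%, 16.3%, 23.3% and 18%, with overlapping groups. Among gene bodies, 1 of 2 erythroid, 1 of 3 B cell and 2 of 3 T cell ones were called higher. So were 2 of 2 stromal and endothelial and 2 of 5 leukocyte and myeloid ones, where 15.5% of all gene bodies were. Among last exons, 1 of 2 erythroid and 1 of 3 leukocyte and myeloid ones were called higher and none of the others, where 5.53% of all were. The part of cell mixture in the results was not tested.

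Each gene was read in 3 parts, the promoter (1 kb on each side of the gene start), the gene body (first to last annotated base) and the last exon. With at least 20 calls required in every library, 373 members had a promoter value, 388 a gene body value and 329 a last exon value, and 326 had all of them. Unmeasured members were mostly KRAB genes, 20 of 21 for promoters and 54 of 65 for last exons, and 14 of the unmeasured last exons lay in a single stretch of chromosome 4 from *Zfp990* to *Zfp933*. One stretch of chromosome 2 (*Zfp968* to *Zfp966*) gave no value at all, with close to no calls.

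To ask how methylation was laid out along the genes, the parts were compared within each library. The mean promoter level of the members was 20.4%, 17.7%, 22.6%, 22.9% and 22.8%. The mean gene body level was 65.3%, 61.0%, 66.0%, 67.5% and 64.4%, and the mean last exon level was 84.3%, 82.6%, 86.1%, 89.8% and 85.3%. The order promoter, gene body, last exon held for these means in every library. Over all protein-coding genes the corresponding means spanned 26.6% to 33.4% for promoters, 58.0% to 68.4% for gene bodies and 69.1% to 82.0% for last exons. Median levels were 12% for member promoters, against 16.2% over all genes, and 90.9% for member last exons, against 84.0%. A last exon level of at least 90% was found in 185 of 329 members (56.2%), compared with 28.7% of all genes measured. First exons could be measured in only 225 members, where they had means of 8.8%, 7.6%, 10.2%, 9.5% and 10.7%, and the promoters of the same members had 15.6%, 13.4%, 17.3%, 17.1% and 18.1%. In these members the first exon was below the promoter window, with which it can overlap, in 201 (89.3%, against 79.95% of all such genes). It held a median of 75 CpG pairs per kb, against 34.0 in the promoter. First exons were those of the protein-coding transcript with the longest coding sequence, whose start can differ from the gene start.

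To set the last exon against its own gene, it was compared with the rest of the body, without the promoter window and the last exon. In limma with Benjamini-Hochberg adjustment over 13327 genes, the last exon was higher in 171 of 318 members and lower in 22, at an adjusted p of at most 0.05. Over all genes 48.2% were higher and 17.7% lower, so that 53.8% of members against 48.2% were higher and 6.92% against 17.7% were lower. Of 202 other C2H2 genes, 57.4% were higher and 14.9% lower. Among clustered members 79 of 154 were higher and 7 lower, and among the others 92 of 164 and 15. The full order of promoter below rest below last exon, on mean levels, was found in 242 of the 317 members with values for these 3 regions (76.3%), compared with 63.2% of all such genes. The last exon was above the promoter in every library in 290 of those members (91.5%, against 81.7% of all such genes) and below it in every library in 10 (3.15%, against 6.01%).

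The widest gaps between the last exon and the rest of its gene ran in both directions. The last exon of *Zfp524* had levels of 89.0%, 87.2%, 92.9%, 95.9% and 89.3%, and the rest of its body 21.0%, 15.4%, 13.2%, 8.93% and 19.7%, a difference of 74.3 percentage points (limma adjusted p = 8.18e-07). In *Zfp771* the order was turned, with 0.383%, 0.36%, 0.615%, 0.687% and 0.497% in the last exon and 78.2%, 77.2%, 77.1%, 86.0% and 78.9% in the rest, a difference of -78.7 points (limma adjusted p = 3.0e-07). In neither gene did a library of one region come near a library of the other. After *Zfp524* the largest positive differences were in *Zfp36l1*, a relative of *Zfp36l2* (60.5 points), *Zfp672* (58.1), *Zfp574* (54.3) and *Zfp46* (47.5). After *Zfp771* the largest negative ones were in *Zfp853* (-76.2 points), *Zfp697* (-59.0), *Zfp648* (-51.0) and *Zfp580* (-37.9). The members with the lowest last exons were *Zfp771* (mean 0.508%), *Zfp36l2* (0.742%), *Zfp830* (2.79%), *Zfp503* (3.76%) and *Zfp580* (5.56%), and those with the highest were *Zfp644* (97.6%), *Zfp410* (97.2%), *Zfp874a*, *Zfp747* and *Zfp382*.

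**Figure D1:**
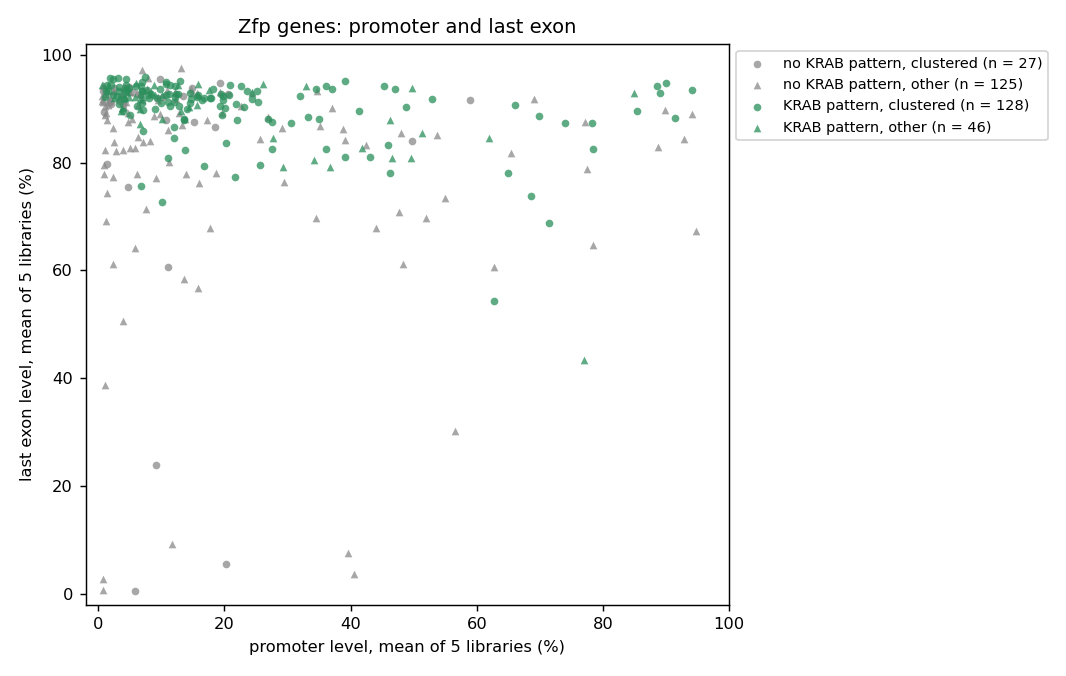
Each point is a *Zfp* gene with both regions measured, with the mean promoter level of the 5 libraries (%) on the x axis and the mean last exon level (%) on the y axis, coloured by KRAB pattern and shaped by clustering. Most points lie at the upper left, at low promoter and high last exon levels, and the last exons under 40% belong to members without a KRAB pattern.

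Promoters spanned nearly the whole scale. The lowest mean levels were in *Zfp362* (0.618%), *Zfp1* (0.619%), *Zfp516*, *Zfp119a* and *Zfp131*, and the highest in *Zfp541* (94.7%), *Zfp869* (94.1%), *Zfp473* (94.0%), *Zfp831* (92.8%) and *Zfp229* (91.4%). Promoter level fell with the density of CpG pairs, with a Spearman's rho across members of -0.62 (373 genes that share the same 5 libraries) and of -0.72 across the 19372 genes measured. Clustered promoters had a median of 24.5 CpG pairs per kb, other members 38 and all genes 35. The 98 member promoters under 20 pairs per kb had a median level of 35.3%, while such promoters over all genes had a median of 68.8%.

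To ask whether clustered members differed from the rest, their levels were compared in each library as a description with no test. Clustered last exons had means of 87.5%, 86.6%, 88.3%, 91.3% and 87.4%, and the others 81.2%, 78.9%, 84.1%, 88.3% and 83.3%, a difference of 5.41 points with a range over libraries of 3.04 to 7.71. Clustered promoters had means of 22.0%, 18.3%, 24.8%, 25.2% and 24.3%, and the others 18.9%, 17.1%, 20.5%, 20.8% and 21.3%, a difference of 3.03 points. Within each class of CpG density, by contrast, clustered promoters had the lower mean in every library. Their mean was 38.7% against 45.5% under 20 CpG pairs per kb, 16.9% against 18.7% from 20 to 40, and 6.31% against 9.16% from 40 up. Clustered gene bodies had 67.3%, 63.1%, 68.0%, 69.2% and 66.0%, and the others 63.3%, 59.1%, 64.0%, 65.8% and 62.9%, a difference of 3.69 points. Over all members measured, the clustered mean was the higher in every library for each part. Of these differences, 2 turned with the definition: with clusters drawn at 250 kb the promoter difference was -0.0108 points, and with calls pooled over genes the gene body difference was -1.57 points. Members just inside the threshold, 21 genes with exactly 3 others within 500 kb, had a mean promoter level of 26.7% and a mean last exon level of 84.2%, and the 42 just outside it, with exactly 2 others, had 19.9% and 87.1%. The mean gene body level was 61.4% inside and 63.1% outside.

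A split by KRAB pattern, added after these values were seen, separated the levels further than clustering did. Genes with and without the pattern also differed in CpG density. Promoters with it had a median of 23.5 CpG pairs per kb and those without 42.2, and last exons 10.9 and 18.5. The part of density in these differences was not tested. Last exons with the pattern had means of 89.1%, 88.3%, 89.6%, 93.0% and 88.5%, and those without 78.6%, 76.0%, 82.1%, 85.9% and 81.5%, a difference of 9.32 points with a range of 7.06 to 12.3. The spread over genes was also unequal, with an SD of 6.7 points among KRAB last exons and 20.7 among the rest. Within the KRAB genes the clustered and the other last exons differed by 0.77 points, with a range over libraries of -0.09 to 1.65, so that the sign was not the same in every library. For promoters the KRAB difference was 7.42 points and the clustering difference within KRAB genes 1.26, with a range of -0.19 to 2.40. Other regions went both ways. The clustered KRAB genes had the higher mean in every library for 4 of them, where the difference was 1.21 points for gene bodies (0.75 to 2.25), 1.84 for gene bodies without promoter window and last exon (1.21 to 2.51), 1.65 for the coding part of the last exon (0.76 to 2.95) and 3.16 for the finger patterns (2.24 to 3.90). In first exons they had the lower mean in every library, at 5.40%, 3.93%, 8.43%, 6.34% and 7.94% in 82 clustered KRAB genes, against 11.2%, 8.90%, 12.8%, 13.6% and 14.7% in 38 others. In the 3′ UTR part of the last exon they were higher in all libraries but 5 (88.0% against 88.7%).

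**Figure D2:**
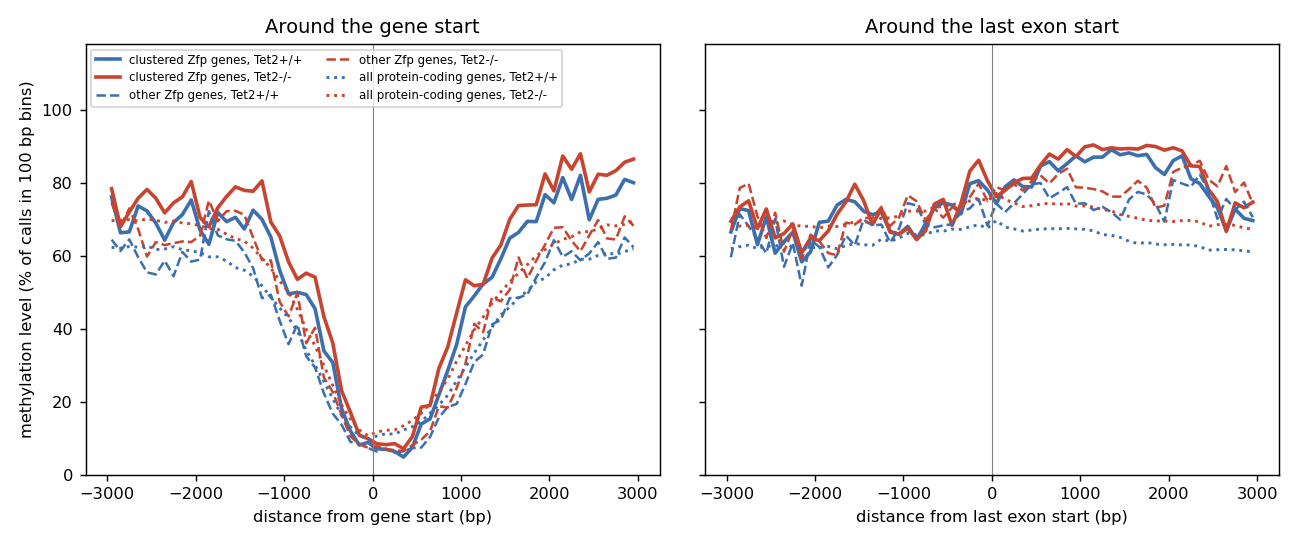
The methylation level (% of calls, 100 bp bins pooled over genes) is drawn against the distance in bp from the gene start and from the start of the last exon, as the mean of the *Tet2*+/+ (blue) and the *Tet2*-/- (red) libraries for clustered, other and all genes. The lowest bin after the start of clustered genes was at 4.86% in *Tet2*+/+ and 7.15% in *Tet2*-/- blasts. Over the kb after the start of their last exons, not cut at the exon end, the curves were at 81.8% and 83.2%.

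Around the gene start every set of genes had a trough, which differed in depth and place, and the flanks were higher in clustered members. From 2 to 3 kb downstream of the start, clustered members stood at 77.2% in *Tet2*+/+ and 83.4% in *Tet2*-/- blasts, the other members at 61.4% and 66.4%, and all genes at 59.4% and 66.8%. Over the kb after the start of the last exon, clustered members stood at 81.8% and 83.2%, the others at 76.3% and 80.1%, and all genes at 67.6% and 74.5%. That kb was not cut at the end of the exon, so for shorter last exons it took in sequence beyond them. Last exons had a median length of 1133 bp over all genes and 2516 bp in members, so these values do not compare last exons alone. The lowest bin lay 300 to 400 bp after the start in clustered members (4.86% and 7.15%), 200 to 300 bp after it in the others (6.03% and 6.75%), and in the 100 bp before it over all genes (9.56% and 10.7%).

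The clusters themselves were followed as 23 runs of at least 4 neighbouring members, with 208 members in all. In each of the 20 runs with at least 3 measured last exons, the mean promoter level was below the mean last exon level. Run means of last exons spanned 74.9% to 93.0% and 18 of 20 were at least 80%, while run means of promoters spanned 4.70% (*Zfp553* to *Zfp668*, chromosome 7) to 58.4% (*Zfp990* to *Zfp933*, chromosome 4). The chromosome 4 run also had the lowest last exons (74.9%), from only 4 of its 18 members, and its regions were covered at 0.4 to 0.6 of the library mean. The run from *Zfp628* to *Zfp580*, which has no KRAB gene, was next at 75.3%.

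**Figure D3:**
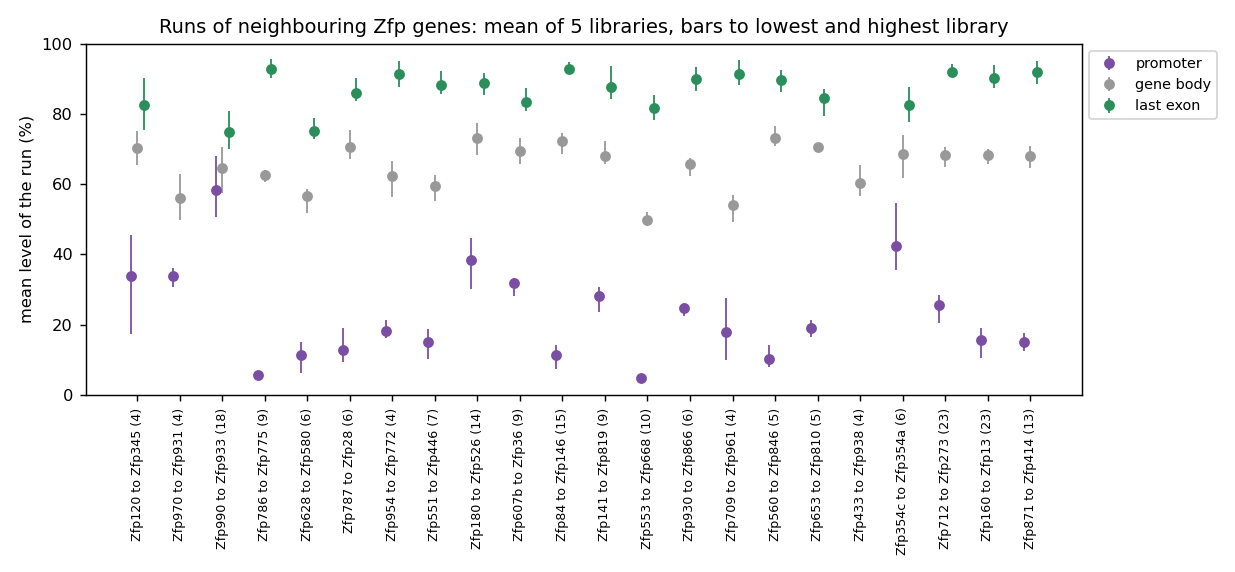
For each run of neighbouring *Zfp* genes, named by its first and last member with the number of members in brackets, points give the mean level (%) of the measured promoters, gene bodies and last exons over the 5 libraries, and bars reach the lowest and the highest library. Promoter points are below last exon points in every run drawn with both, and they spread over a wider range, 4.70% to 58.4%, than last exon points.

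To ask how loss of TET2 changed these genes, *Tet2*-/- was compared with *Tet2*+/+ in each part. Both kinds of call, methylated and not, entered edgeR's quasi-likelihood test for all genes, with Benjamini-Hochberg adjustment over all genes of that part, and a gene was called at an adjusted p of at most 0.05. Member means were higher in *Tet2*-/- blasts by 3.74 points for promoters, 2.80 for gene bodies and 3.61 for last exons. For gene bodies the groups overlapped, with *Tet2*+/+ library 23 at 65.3% and *Tet2*-/- library 8 at 64.4%. Over all gene bodies these libraries were at 62.3% and 64.0%, and the groups did not overlap. For gene bodies without promoter window and last exon the mean difference was 4.93 points in 376 members and 7.20 over all genes. The medians there were 4.52 and 6.19 points. In 161 of these members (42.8%, against 60.4% of all genes) every *Tet2*-/- library was above both *Tet2*+/+ libraries. With calls pooled over genes, so that regions with more calls weigh more, the promoter difference was 1.98. The values also rested in part on single libraries: the promoter difference was 2.37 without library 24, that of gene bodies 0.678 without library 24 and 4.92 without library 23, and that of last exons 2.26 without library 7. The median difference per member was 1.55, 2.45 and 2.62 points, compared with 2.22, 4.96 and 5.57 points over all genes. In other C2H2 genes it was 1.68, 4.11 and 4.71 points. Set against the median of all genes, the median member was therefore lower, not higher, in every part, except that without library 7 the promoter medians were 1.87 in members and 1.85 in all genes. This held for the members as 1 set. In promoters the median was 2.48 points in clustered members and 2.90 in those with a KRAB pattern, both above the 2.22 of all genes, and 1.08 in the members outside clusters, while the mean difference was 4.63 in clustered members and 4.61 over all genes. Without library 23 the member medians of promoters and gene bodies were 2.74 and 4.49 points, without library 24 they were 0.947 and 0.498 (3.05 for all gene bodies), and without library 7 the member median of last exons was 1.36. The groups did not overlap, with every *Tet2*-/- library above both *Tet2*+/+ libraries, in 110 of 373 member promoters (29.5%, against 32.8% of all promoters), 99 of 388 gene bodies (25.5%, against 46%) and 99 of 329 last exons (30.1%, against 41.4%). The reverse order was found in 18 promoters (4.83%, against 4.02%), 15 gene bodies (3.87%, against 1.47%) and 9 last exons (2.74%, against 1.3%).

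Levels differed between members and all genes, so the differences were also read within classes of the mean level of all 5 libraries. This mean includes the *Tet2*-/- libraries, so the classes do not match genes on their *Tet2*+/+ level. For last exons at 90% to 100% the median difference was 1.67 points in members and 2.94 in all genes, at 80% to 90% it was 4.62 and 6.62, and at 50% to 80% it was 7.85 and 10.4. For gene bodies at 50% to 80% it was 2.69 and 5.44. For promoters at 10% to 50% it was 5.11 and 4.85, and at 50% to 80% it was 6.87 and 9.89. The member median was thus the smaller in these classes of gene bodies and last exons, and the larger in the lower of these promoter classes. Promoters under 10%, a class of 168 members, had a median of 0.517 in both sets. Last exons under 10% had the larger median in members, 1.51 points in 7 members against 0.685 in all genes. The member median was the smaller for promoters above 80% and for gene bodies at 10% to 50% and 80% to 90%.

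**Figure D4:**
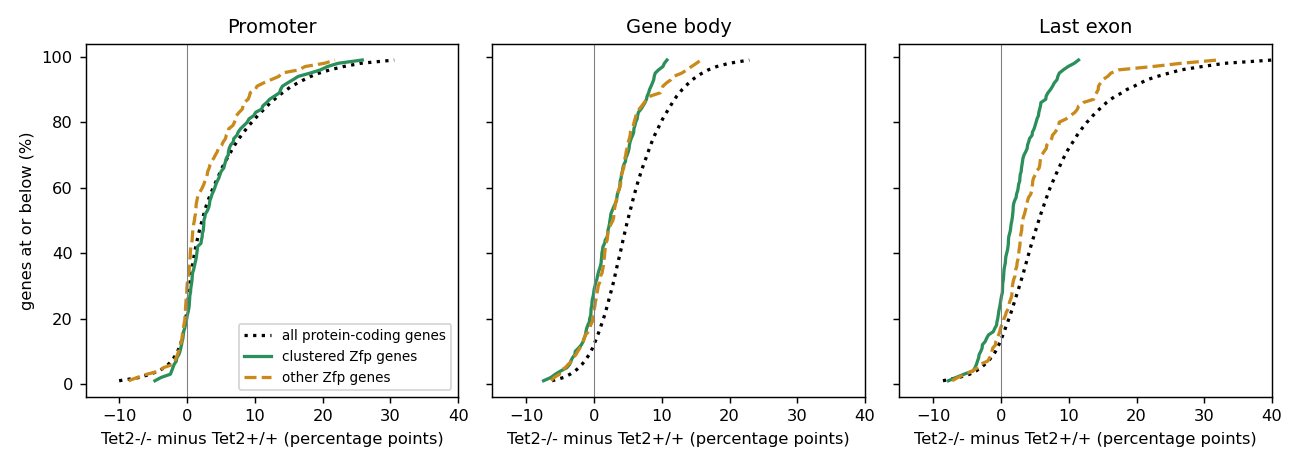
Cumulative curves give the percentage of genes (y axis) whose difference between *Tet2*-/- and *Tet2*+/+ (x axis, percentage points) is at or below each value, for promoters, gene bodies and last exons. In gene bodies and last exons the curves of clustered and other *Zfp* genes lie to the left of that of all protein-coding genes over most of the range, with last exon medians of 1.61, 3.19 and 5.57 points, whereas in promoters the median of the clustered genes, 2.48 points, is above the 2.22 of all genes.

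Among 373 member promoters, 2 were called higher (0.536%, against 1.02% of all promoters) and 0 lower (against 0.0155%). At an unadjusted p under 0.05 the edgeR test had 50 member promoters higher (13.4%, against 17.5% of all promoters) and 2 lower (0.536%, against 0.578%). Limma called 5 higher (1.34%, against 0.878%) and 0 lower (against 0.0206%), so that the member share was below that of all promoters with edgeR and above it with limma. Both called promoters belonged to adjacent clustered KRAB genes on chromosome 7. The *Zfp30* promoter (gene at chr7:29783998-29794702, + strand) had 11.7%, 10.2%, 33.2%, 43.3% and 39.5%, from 195 to 492 calls per library over 68 CpG pairs. All *Tet2*-/- libraries were thus well above both *Tet2*+/+ libraries, which averaged 11% ± 1.07 (SD, n = 2), and their own mean of 38.7% ± 5.07 (SD, n = 3) was 27.7 points higher (edgeR adjusted p = 0.0156). The *Zfp84* promoter (gene at chr7:29768552-29779821, + strand) had 0.337%, 0.673%, 4.31%, 5.66% and 5.74%, a difference of 4.73 points (edgeR adjusted p = 0.0277). Without library 23 or without library 24 neither was called. Those fits keep a single *Tet2*+/+ library and called few or no promoters of any gene, so this loss is no result about these 2 genes. *Zfp84* was also lost without library 7 or library 8. The number of promoters called was 4 without library 5 and 1 without library 8, where 1.5% and 0.396% of all promoters were called higher. With a promoter of 500 bp on each side the difference was 18.4 points for *Zfp30* and -0.141 for *Zfp84*, and neither gene's value there was called.

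Read in steps of 250 bp, *Zfp30* had higher levels in *Tet2*-/- blasts along most of the window, with every *Tet2*-/- library above both *Tet2*+/+ libraries in all bins but the last, some of them of few calls. The 250 bases before its start, printed above, had 8.16%, 8.16%, 18%, 63.6% and 44.4%, and the bin from 500 to 750 bases after it, in the first exon, had 13.8%, 8.16%, 59.4%, 58.9% and 61.5%. In the latter bin library 5 lay with libraries 7 and 8, while in each of the 3 bins from 250 bases before the start to 500 after it library 5 was nearer to the *Tet2*+/+ libraries. In *Zfp84*, by contrast, nearly all of the difference was in the printed intron stretch, where the level was 0%, 0%, 56%, 77.4% and 76.5%. Of its 3 CpGs, the one 787 bases after the start was at 0% in both groups, while those at 962 and 971 bases were at 0 of 11 and 0 of 13 pooled *Tet2*+/+ calls and at 75.9% and 90.6% of 29 and 32 pooled *Tet2*-/- calls. With counting error alone, these counts of 0 allow levels of up to 27.3% and 23.1% at the 2 CpGs. The last exons of both genes were highly methylated throughout, at 89.9%, 94.1%, 90.9%, 73.5% and 89.7% in *Zfp30* and at 94.2%, 94.5%, 92.8%, 97.2% and 91.8% in *Zfp84*, and neither was called.

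Among 329 member last exons, 6 were called higher (1.82%, against 5.53% of all last exons) and 0 lower (against 0.0396%). At an unadjusted p under 0.05 the edgeR test had 40 higher (12.2%, against 21.2% of all last exons) and 2 lower (0.608%, against 0.244%), and limma called 5 higher (1.52%, against 4.44%) and 0 lower (against 0.0396%). None of the 6 was clustered and none had a KRAB pattern, but *Zfp526* and *Zfp574* lie in the run of neighbouring members from *Zfp180* to *Zfp526* on chromosome 7, so that 2 of the 166 last exons measured in runs were called. Of the 177 KRAB last exons the edgeR test and limma each called 0, with 10 higher and 2 lower at an unadjusted p under 0.05.

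The *Zfp683* last exon (gene at chr4:134053838-134058996, + strand), of a gene known as Hobit from tissue-resident lymphocytes, had 31.1%, 47.5%, 84.7%, 83.3% and 77.4% over 11 CpG pairs. The groups were far apart: *Tet2*+/+ blasts averaged 39.3% ± 11.6 (SD, n = 2), and *Tet2*-/- blasts were 42.5 points above them, at 81.8% ± 3.92 (SD, n = 3, edgeR adjusted p = 0.00371). The printed coding stretch alone had 22.6%, 42.6%, 84.4%, 81.1% and 72.1%. The *Zfp532* last exon had 56.0%, 36.3%, 83.0%, 89.9% and 74.6%, a difference of 36.3 points (edgeR adjusted p = 0.00106), with no overlap. The *Zfp526* last exon had 77.2%, 60.9%, 88.8%, 95.7% and 91.0% (22.8 points, edgeR adjusted p = 0.00168), and that of *Zfp574*, a neighbour on chromosome 7, had 77.3%, 77.4%, 90.5%, 94.1% and 91.9% (14.9 points, edgeR adjusted p = 0.00906). In these 4 genes both *Tet2*+/+ libraries were below every *Tet2*-/- library.

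In the other 2 called last exons a single *Tet2*+/+ library set the difference. *Zfp385a*, a p53 target known from megakaryocytes, had 82.0%, 37.6%, 89.4%, 91.2% and 89.1% (30.1 points, edgeR adjusted p = 0.00829), and without library 24 the difference was 7.90 points. *Zfp239* had 44.3%, 91.6%, 94.0%, 96.7% and 95.4% (27.4 points, edgeR adjusted p = 0.0031), and without library 23 it was 3.76 points. Every called last exon was lost in at least 1 fit that left out a library: *Zfp532* and *Zfp526* without library 24, *Zfp683* without library 23, *Zfp574* without either, *Zfp385a* without library 24 or 7, and *Zfp239* without library 23 or 7. Highest adjusted p-values in these edgeR fits were 0.117 for *Zfp683* to 0.866 for *Zfp385a*. The number called was 2 without library 24, where 0.91% of all last exons were called higher.

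**Figure D5:**
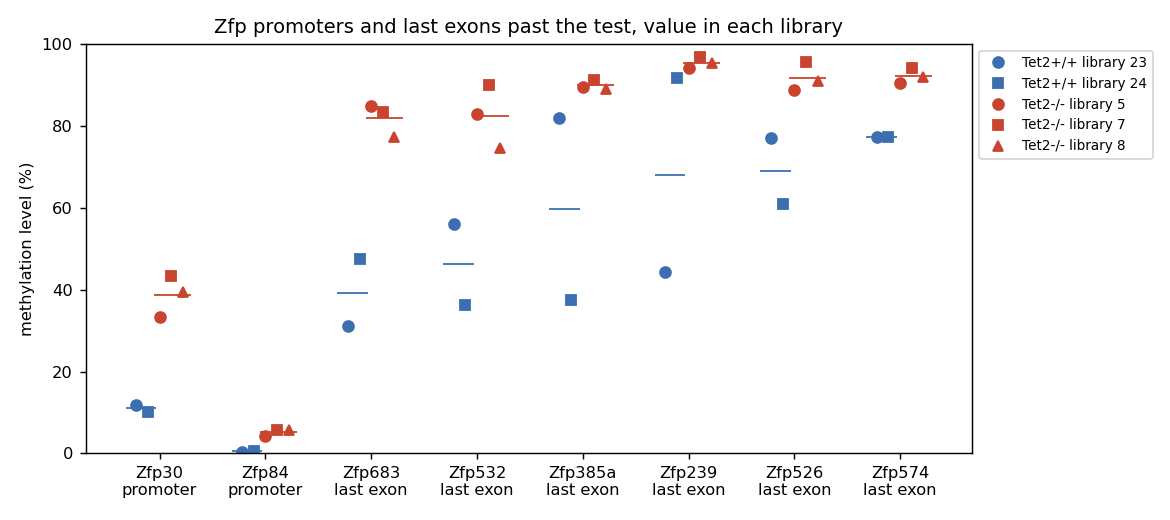
The methylation level (%) of the 2 promoters and 6 last exons that passed the test is drawn for each library, *Tet2*+/+ in blue and *Tet2*-/- in red, with a line at each group mean. Every red point is above every blue point of its gene, and in *Zfp385a* and *Zfp239* 1 blue point lies close to the red ones.

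Among 388 member gene bodies, 25 were called higher (6.44%, against 15.5% of all gene bodies) and 0 lower (against 0.0679%). At an unadjusted p under 0.05 the edgeR test had 49 higher (12.6%, against 29% of all gene bodies) and 2 lower (0.515%, against 0.184%), and limma called 2 higher (0.515%, against 2.32%) and 0 lower (against 0.0145%). By set, 5 of 191 clustered members and 20 of 197 others were called, and 7 of 225 with and 18 of 163 without a KRAB pattern. The difference between these sets was not tested. The gene body holds the last exon, and *Zfp526*, *Zfp532*, *Zfp239* and *Zfp683* were called in both parts. With the promoter window and the last exon left out, 10 of the called gene bodies with a value stayed called and 14 did not. In that fit 19 of 376 members were called, and 1844 of 18371 genes. The other counts here are of whole gene bodies. Leaving out library 24 left 1 call, where 0.416% of all gene bodies were called higher, and leaving out library 5 left 12, where 8.7% were.

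The *Zfp366* gene body (chr13:99184823-99250656, + strand), of the dendritic cell factor also known as DC-SCRIPT, had 69.0%, 62.8%, 79.9%, 86.0% and 81.1% from 2842 to 4980 calls. *Tet2*+/+ blasts averaged 65.9% ± 4.34 (SD, n = 2), and *Tet2*-/- blasts were 16.4 points higher at 82.3% ± 3.26 (SD, n = 3, edgeR adjusted p = 5.41e-05). That of *Zfp526* had 69.0%, 58.8%, 79.1%, 85.4% and 80.5% (17.8 points, edgeR adjusted p = 0.000664). These were also the 2 gene bodies that limma called, and without library 24 neither was called by edgeR. Next in size were *Zfp735* (15.7 points, edgeR adjusted p = 0.0472, lost without library 23, 24, 5 or 7), *Zfp239* (15.1, adjusted p = 0.00531, lost without library 23) and *Zfp532* (15.1, adjusted p = 0.0045, lost without library 24). The smallest called difference was in *Zfp830*, a single-exon gene with 1.06%, 0.822%, 3.52%, 4.48% and 4.05% (3.07 points, edgeR adjusted p = 0.0107). Its last exon is the same stretch and was not called among last exons, so the call depended on the regions fitted with it. Levels there were low in every library, and the groups did not overlap.

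No member was called lower by the edgeR quasi-likelihood test with all 5 libraries. The likelihood ratio test called 1 promoter lower, against 0.0568% of all promoters. The quasi-likelihood test called 1 gene body lower without library 23 and 2 without library 7, against 0.0436% and 0.107% of all gene bodies. The 3 largest decreases of each part are given as values. The promoter of the X-linked *Zfp711* had 73.9%, 51.9%, 44.5%, 38.8% and 29.1%, a difference of -25.5 points with no overlap (edgeR adjusted p = 0.114). Those of *Zfp280c*, also X-linked, and *Zfp558* differed by -8.32 and -8.19 points. The largest decreases of gene bodies were -13.4 points in *Zfp959* (edgeR adjusted p = 0.24), -8.97 in *Zfp575* and -8.66 in *Zfp971*. The largest of last exons was -8.33 points in *Zfp426* (97.1%, 97.9%, 91.1%, 91.8% and 84.6%, edgeR adjusted p = 0.173), followed by *Zfp493* and *Zfp677*. The 9 X-linked member promoters averaged 53.5%, 48.8%, 49.6%, 49.9% and 51.9%, and all 751 X-linked promoters 54.3%, 50.4%, 54.0%, 57.6% and 50.9%, while the autosomal member promoters averaged 19.6%, 16.9%, 21.9%, 22.3% and 22.1%.

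Members with known roles were read as lists. In the imprint and retroelement KRAB list all 6 promoters had a positive difference, as did 76.7% of all promoters. The median was 9.95 points against 2.22 over all promoters, and 0 were called, against 1.02% of all promoters called higher. The median level of these promoters was 23.2%, and over all promoters at 10% to 50% the median difference was 4.85 points. *Zfp819*, which represses retroelements in pluripotent cells, had 17.2%, 16.2%, 48.4%, 30.2% and 47.7% at its promoter (25.4 points, edgeR adjusted p = 0.0628), with no overlap. Its gene body had 60.9%, 61.2%, 70.2%, 73.5% and 73.9%, a difference of 11.5 points that was called (edgeR adjusted p = 0.0467) and was lost without any 1 of the 5 libraries. The promoter differences of *Zfp445* and *Zfp57*, which maintain imprints, were 12.1 and 9.68 points, and that of *Zfp932* was 10.2. *Zfp57* stood apart in level, with a promoter at 74.1%, 68.3%, 83.6%, 81.4% and 77.8% and a last exon at only 37.3%, 51.0%, 48.2%, 50.2% and 30.4%. *Zfp568* and *Zfp809* promoters had mean levels of 4.07% and 5.91%.

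Of the 7 hematopoietic members, 0 promoters, 2 gene bodies and 0 last exons were called, where 1.02% of all promoters, 15.5% of all gene bodies and 5.53% of all last exons were called higher. The 2 were *Zfp366*, above, and *Zfp521*, a factor of stem and progenitor cells, with 70.3%, 63.3%, 75.3%, 85.7% and 73.7% (11.5 points, edgeR adjusted p = 0.0329, lost without library 23, 24, 5 or 7). The promoter of *Zfp423*, which is related to *Zfp521*, had 8.2%, 7.11%, 18.6%, 16.8% and 28.7%, above the *Tet2*+/+ range in every *Tet2*-/- library but short of the threshold (edgeR adjusted p = 0.0623). In the tristetraprolin family, whose proteins promote decay of AU-rich mRNAs, 0 of 4 genes were called in any part, beside the same shares of all genes, at which few or no calls among so few genes are no result about the family. Its promoter levels ran from 0.727% at *Zfp36l2* to 89.8% at the X-linked *Zfp36l3*. Of the 7 pluripotency and development members 0 were called in any part, again beside 1.02%, 15.5% and 5.53% of all genes. The *Zfp217* promoter had 19.6%, 39.7%, 41.7%, 52.8% and 58.6%, and that of the pluripotency marker *Zfp42* (Rex1) was between 72.6% and 82.1% in every library. Of the 3 members in the study's RNA lists, *Zfp512b*, *Zfp113* and *Zfp945*, 0 were called in any part, beside the same shares. Those lists were made from leukemias of the same model, so they are not independent of it.

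The partners that KRAB zinc finger proteins recruit, such as *Trim28*, *Setdb1* and the HP1 genes *Cbx1*, *Cbx3* and *Cbx5*, gave 0 of 17 promoters, 1 of 18 gene bodies (higher) and 0 of 11 last exons called, beside 1.02%, 15.5% and 5.53% of all genes called higher. Their median promoter difference was 0.285 points, compared with 2.22 over all promoters. Their median promoter level was 7.8%, and over all promoters with a level under 10% the median difference was 0.517 points.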

How the data were processed

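CpG methylation was measured in the 5 libraries described above. Per the methods and the labels, DNA from sorted blasts was converted with EZ DNA Methylation-Gold, made into Pico Methyl-Seq libraries, which are random-primed, and sequenced on a NextSeq 500. The submitters' processing notes name FastQC 0.11.7, Trim Galore 0.4.3, Bismark 0.19.1 and Bowtie2, with GRCm38 as the build. The deposited files hold counts of methylated and unmethylated calls per CpG and strand, not normalized, as the authors' pipeline wrote them. The paper's methods state that duplicate alignments were removed before calls were extracted. PCR reads carry no molecular identifiers, so intervals and limits cover counting error only.

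Counts were summed over both strands in each region, and a region needed at least 20 calls in every library. At that minimum a level of 50% has a 95% Wilson interval of 29.9% to 70.1%. The last exon was that of the protein-coding transcript with the longest coding sequence. Between genotypes, edgeR 4.0.16 (glmQLFit, glmQLFTest) was run in R 4.3.3 on both counts over all protein-coding genes. Last exons were compared with the rest of the gene with limma 3.58.1, on log2 ratios with an offset of 2. Both steps were run on simulated data with planted changes. For edgeR, the simulation gave unchanged genes the same level in all 5 libraries. It therefore did not cover shifts of level between whole libraries, such as those in these data. Sums and levels were computed in Python 3.11.15.

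The C2H2 and KRAB patterns were searched in the translated reference, the latter with at least 7 of 9 letters. Named genes were the members of the role lists, the 5 called members with the largest difference in each part and direction (3 where none was called), the 5 highest and 5 lowest promoters and last exons, and the 5 last exons furthest above and below the rest of the gene. *Zfp574* and *Zfp830* were also described, as the remaining called last exon and the smallest called gene body, after their values were seen. The members and lists were chosen with earlier results of these data known. The libraries came from separate mice. An exact permutation test of 2 against 3 libraries cannot give a p below 0.1. Alternatives were other tests, call minimums, region and cluster definitions, pooled or thinned calls, and leaving out each library.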

Additional observations from a re-analysis of the deposited data

How the results depend on the processing

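The number of *Zfp* promoters called between genotypes was 2, and 15 with edgeR's likelihood ratio test, which called 915 of all 19372 promoters, 5 with limma, 0 with limma after subtracting the median of all genes in each library, 1 with calls thinned to the shallowest library, 1 with a promoter of 500 bp on each side, and 0 to 4 when a library was left out. The number of gene bodies called was 25, and 2 with limma, 0 with limma after median subtraction and 1 to 21 when a library was left out. The number of last exons called was 6, and 0 with limma after median subtraction and 2 to 8 when a library was left out. Without library 24 the counts were 0, 1 and 2. The remaining *Tet2*+/+ library was then assumed to vary like the others. None of the 33 calls held in every such fit. The 193 last exons called against the rest of the gene became 154 to 186. Over all genes, limma after median subtraction called 38 of 19372 promoters, 6 of 20630 gene bodies and 71 of 15150 last exons. With thinned calls 132 of 19009 promoters were called, and with 500 bp on each side 104 of 18014. Last exons against the rest were called in 8783 of 13327 genes. When a *Tet2*-/- library was left out, 80 to 295 promoters, 1809 to 3346 gene bodies and 469 to 1000 last exons of all genes were called. The mean promoter difference of 3.74 points was 1.98 with calls pooled over genes and 2.37 to 5.12 when a library was left out, that of gene bodies (2.80) 0.678 to 4.92 and that of last exons (3.61) 2.26 to 4.47. Clustered minus other members was 3.03 points for promoters, 4.58 on autosomes only and -0.0108 with clusters within 250 kb. For gene bodies it was 3.69, -1.57 with pooled calls and 4.43 with clusters within 250 kb. For last exons it was 5.41, 4.38 with a minimum of 10 calls and 8.28 with pooled calls. Leaving out a library gave 2.57 to 3.54, 3.56 to 3.72 and 4.75 to 5.86 points. The *Zfp84* promoter difference turned to -0.141 with 500 bp on each side, which leaves out the intron CpGs that differed. For the called genes, 235 alternative values stayed past the threshold, 160 did not and 1 turned. Elsewhere the cause was not tested. No paired analysis was possible because the 2 genotypes share no library number. The minimum of calls left 65 last exons without a value, 1 of them without any CpG pair and with a median of 8 pairs, against 37 in the measured ones.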
